A study of Mus musculus with 4 samples.

Results

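The Gimap genes encode GTPases of immunity-associated proteins, and the 8 family members Gimap1, Gimap3, Gimap4, Gimap5, Gimap6, Gimap7, Gimap8 and Gimap9 were followed here, chosen by name from the 31053 genes in each matrix. Single-cell RNA of FVB/N mouse thymus was measured by droplet 3′ sequencing in 4 libraries of 1 mouse each. The WT library came from a wild type mouse of 6 weeks, the preleukemic library from a Tal1/Lmo2 mouse of 6 weeks, and those of the leukemic group, named T-ALL#1 and T-ALL#2, from Tal1/Lmo2 mice of 3 months. Viable single cells had been sorted from each thymus after lysis of red cells. Both transgenes of the Tal1/Lmo2 mice are driven by the proximal Lck promoter, which is active in immature thymocytes. The WT and preleukemic groups held 1 mouse each, so differences between libraries are given as values without a test, and only states of cells within libraries were tested. Age differed together with disease between the preleukemic and leukemic mice, and these cannot be told apart.

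Gimap proteins are guanine nucleotide-binding proteins found mainly in lymphocytes, several of them on the membranes of organelles. They are known for setting the survival of lymphocytes. Gimap1 and Gimap5 are required for the maintenance of mature T cells, and loss of Gimap5 causes T cell lymphopenia in rodents. Gimap3 and Gimap5 have been linked to survival and Gimap4 to apoptosis of T cells, and Gimap6 to autophagy.

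The 8 genes lie side by side on chromosome 6 of the mouse genome (GRCm38, GENCODE M21), within 124 kb from 48647234 to 48770851, and all are protein-coding. In order along the chromosome they are Gimap8 (48647234 to 48660875), Gimap9 (48676129 to 48679114), Gimap4 (48684549 to 48692060), Gimap6 (48701582 to 48708225), Gimap7 (48718621 to 48724636), Gimap1 (48739054 to 48743795), Gimap5 (48746197 to 48754210) and Gimap3 (48764464 to 48770851). Gimap6 and Gimap3 are on the minus strand and the other 6 on the plus strand. A readthrough gene, Gm28053, shares 3.48% of the exonic bases of Gimap7, 6.44% of those of Gimap1 and 3.69% of those of Gimap5. Reads in those stretches could be split between the overlapping genes, and Gm28053 itself held 19, 45, 4 and 4 UMIs (unique molecular identifiers, that is counted RNA molecules) in WT, preleukemic, T-ALL#1 and T-ALL#2.

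Promoters of 5 members are shown because they bracket the results that follow. In the fit over the 4 libraries, Gimap3, Gimap4 and Gimap7 differed most between cells with and without receptors of mature thymocytes, and Gimap1 and Gimap9 differed least. Each window runs from 250 bases before to 50 bases after the RefSeq gene start (GRCm38.p6), written 5′ to 3′ on the gene's strand, and capitals mark matches to CANNTG, the E-box, the class of site that Tal1 is known to bind with its partner proteins.
Gimap3, chr6:48770802-48771101, minus strand: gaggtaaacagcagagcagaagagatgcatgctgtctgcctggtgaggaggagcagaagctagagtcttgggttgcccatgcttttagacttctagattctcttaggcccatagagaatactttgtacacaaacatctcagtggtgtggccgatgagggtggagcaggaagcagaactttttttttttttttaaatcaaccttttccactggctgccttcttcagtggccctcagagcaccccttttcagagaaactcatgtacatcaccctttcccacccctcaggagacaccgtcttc
Gimap4, chr6:48684328-48684627, plus strand: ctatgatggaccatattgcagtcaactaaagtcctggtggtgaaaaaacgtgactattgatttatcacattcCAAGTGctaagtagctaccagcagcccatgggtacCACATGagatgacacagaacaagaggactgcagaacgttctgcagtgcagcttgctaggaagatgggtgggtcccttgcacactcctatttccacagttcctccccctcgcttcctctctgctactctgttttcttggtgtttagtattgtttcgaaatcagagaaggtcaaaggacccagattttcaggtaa
Gimap7, chr6:48718371-48718670, plus strand: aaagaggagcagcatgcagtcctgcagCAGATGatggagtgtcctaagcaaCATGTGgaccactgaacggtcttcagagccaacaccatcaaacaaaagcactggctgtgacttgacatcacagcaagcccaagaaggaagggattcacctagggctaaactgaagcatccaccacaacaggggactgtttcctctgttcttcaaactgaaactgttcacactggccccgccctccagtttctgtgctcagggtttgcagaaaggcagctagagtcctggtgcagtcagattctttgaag
Gimap1, chr6:48738797-48739096, plus strand: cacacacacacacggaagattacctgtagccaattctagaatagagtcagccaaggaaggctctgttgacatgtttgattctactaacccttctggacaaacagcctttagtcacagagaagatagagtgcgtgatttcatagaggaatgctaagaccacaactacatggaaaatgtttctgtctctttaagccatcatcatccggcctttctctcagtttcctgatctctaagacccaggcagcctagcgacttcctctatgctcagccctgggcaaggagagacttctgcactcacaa
Gimap9, chr6:48675885-48676184, plus strand: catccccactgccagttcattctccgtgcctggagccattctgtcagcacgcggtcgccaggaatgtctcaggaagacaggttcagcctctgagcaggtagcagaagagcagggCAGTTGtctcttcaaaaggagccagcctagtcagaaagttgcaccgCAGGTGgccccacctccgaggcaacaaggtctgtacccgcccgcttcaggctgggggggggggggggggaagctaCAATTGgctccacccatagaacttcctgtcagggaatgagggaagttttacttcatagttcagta
RefSeq listed 9 windows for the 8 members, with 2 overlapping ones for Gimap8. Of these, 7 held CANNTG, against 72.3% of 32851 promoter windows of the same length. The windows of Gimap1 and Gimap3 held none, those of Gimap4 and Gimap7 held 2 each, and that of Gimap9 held 3. The ETS letters GGAAGT were in 4 of the 9 (23.8% of all windows), the RUNX letters TGTGGT in 3 (16.8%), the KLF letters CCACCC in 5 (31.5%) and the GATA letters AGATAA in 0 (11.2%), with both strands searched and each motif counted by itself, so that matches of different motifs may overlap. A match is a description of the sequence and not a bound site.

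The kept cells numbered 4220 in WT, 5576 in preleukemic, 5773 in T-ALL#1 and 1975 in T-ALL#2, with 24042062, 40851235, 70745712 and 36236569 UMIs and medians of 3800.5, 4888, 8742 and 17581 UMIs per cell. A lower limit of 3416 UMIs per cell was set for T-ALL#2 alone, and its part in the differences between libraries was not tested. Between 0 and 9 cell barcodes were shared by any pair of libraries. All 8 T lineage markers were detected in every library. Tal1 had 0 UMIs in WT and 409.6, 68.3 and 234 CPM (UMIs of a gene per 1000000 UMIs of all genes in the same cells) in preleukemic, T-ALL#1 and T-ALL#2, and Lmo2 stood at 0.915, 4.48, 0.368 and 0.276 CPM in the 4 libraries, so Lmo2 was above WT in the preleukemic library alone. Whether the 3′ reads reach the end of the transgene transcripts is not given in the sources used here. The WT and preleukemic mice were labelled male, but both libraries held Xist (1380 and 1869 CPM) and 1 and 5 UMIs of 4 Y-linked genes in all. T-ALL#1, labelled female, held Xist at 1932 CPM and 1 Y-linked UMI, and T-ALL#2, labelled male, held Xist at 0.0828 and the Y-linked genes at 122 CPM. By these genes T-ALL#2 differed in sex from the other 3 libraries, and the label was contradicted in 2 of 4. The part of sex in the differences between libraries was not tested.

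At the level of the whole library, the family took 1115 CPM of all UMIs in WT (95% Poisson interval 1102 to 1128), 1209 CPM in preleukemic (1198 to 1220), 400.4 CPM in T-ALL#1 (395.7 to 405.1) and 316 CPM in T-ALL#2 (310.2 to 321.8). These intervals cover counting error only. The summed family was thus highest in the preleukemic thymus and lowest in T-ALL#2, with no overlap of intervals between any pair of libraries. A UMI of at least 1 member was found in 88.03%, 96.7%, 91.6% and 94.8% of cells. The share of cells followed depth as well as level: after each cell was thinned to 2000 UMIs it was 82.2%, 85.9%, 55.5% and 49.6%, with 991, 350, 94 and 0 shallower cells left out.

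Gimap5, whose loss causes T cell lymphopenia, had the narrowest range of levels in the family. It had 34.1 CPM in WT, 40.8 in preleukemic, 28.6 for T-ALL#1 and 40.8 for T-ALL#2. The preleukemic and T-ALL#2 intervals overlapped (38.9 to 42.8 against 38.8 to 43.0), and WT lay between these and T-ALL#1. Gimap1, the other member required by mature T cells, had 226 CPM in WT, 243 in preleukemic, 112 for T-ALL#1 and 108 for T-ALL#2. The intervals of the 2 leukemias overlapped, and both leukemias lay below both other libraries.

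Gimap3 showed the widest range. It had 74.2 CPM in WT (1783 UMIs), 57.5 in preleukemic (2348 UMIs), 5.82 for T-ALL#1 (412 UMIs), and only 0.994 for T-ALL#2 (36 UMIs). Both leukemias were far below the other libraries, and they also differed from each other beyond counting error. Gimap4, linked to apoptosis, had 222 CPM in WT, 89.2 in preleukemic, 45.8 for T-ALL#1 and 40.1 for T-ALL#2. It was more than 2-fold lower in preleukemic than in WT, which held for no other member.

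Gimap6, linked to autophagy, had 209 CPM in WT, 305 in preleukemic, 47.4 for T-ALL#1 and 29.0 for T-ALL#2. Gimap7 had 65.2 CPM in WT, 125 in preleukemic, 6.81 for T-ALL#1 and 6.79 for T-ALL#2. Gimap8, which carries several GTPase domains in 1 protein, had 94.4 CPM in WT, 107 in preleukemic, 15.8 in T-ALL#1 and 10.4 in T-ALL#2. These 3 members were highest in the preleukemic thymus and lowest in the leukemias, and for Gimap7 the intervals of the 2 leukemias overlapped. Gimap9 had 191 CPM in WT, 241 in preleukemic, 138 for T-ALL#1 and 80.1 for T-ALL#2, the same order with a narrower range.

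**Figure D1:**
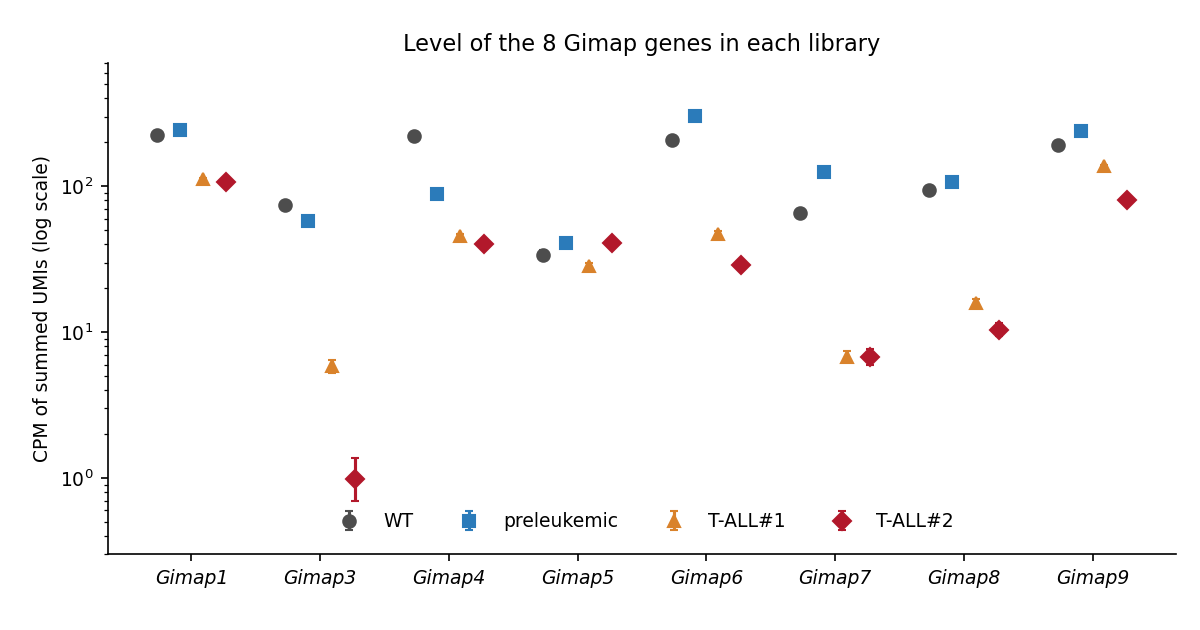
Level of each member in each library, as CPM of UMIs summed over kept cells on a log axis, with 95% Poisson intervals. Gimap3 spans 74.2 CPM in WT to 0.994 in T-ALL#2, whereas Gimap5 stays between 28.6 and 40.8 CPM.

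A member was called different between libraries when it differed at least 2-fold and the intervals did not overlap, and the background is the percent of all genes at 10 CPM or more in either library that met the same rule. In preleukemic over WT, 0 of 8 members were higher (background 4.46%) and 1 of 8 was lower (4.88%), namely Gimap4, 2.49-fold. Gimap7 was 1.92-fold higher and missed the rule. In T-ALL#1 over WT, 6 of 8 were lower (12.9%) and 0 higher (4.72%), and in T-ALL#2 over WT, 7 of 8 were lower (30.3%) and 0 higher (5.2%). Against the preleukemic library, T-ALL#1 had 5 lower (11.8%) and 0 higher (4.68%), and T-ALL#2 had 7 lower (27.1%) and 0 higher (3.96%). These comparisons share their WT or preleukemic library and are not independent.

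The median log2 ratio of the 8 members was 0.22 in preleukemic over WT, −2.21 in T-ALL#1 over WT, −2.66 in T-ALL#2 over WT, −1.90 in T-ALL#1 over preleukemic and −2.48 in T-ALL#2 over preleukemic. Over all genes compared the medians were −0.03, −0.18, −0.54, −0.15 and −0.48. The largest differences were those of Gimap3, 12.7-fold (T-ALL#1) and 74.6-fold (T-ALL#2, from 36 UMIs at a level whose interval overlapped that of empty droplets) below WT, and of Gimap7, 18.3-fold and 18.4-fold lower than in preleukemic. Gimap8 was 5.97-fold and 9.10-fold lower than in WT, and Gimap6 4.41-fold and 7.20-fold. The Gimap8 interval in T-ALL#2 also overlapped that of empty droplets. Gimap5 met the rule in none of the 5 comparisons. Scaling by TMM factors (trimmed mean of M-values) raised every log2 ratio by 0.31 in T-ALL#1 over WT and by 0.55 in T-ALL#2 over WT. On that scale Gimap5 turned from −0.25 to 0.06 in T-ALL#1 over WT, and the members called lower were 5 in T-ALL#1 (background on that scale 8.23%) and 5 in T-ALL#2 (14.3%), without Gimap1 and, in T-ALL#2, Gimap9. In T-ALL#2 over WT it turned Gimap5 from 0.26 to 0.81. Against preleukemic the shifts were 0.26 and 0.50, with 4 members lower in T-ALL#1 (background 8.2%) and 5 in T-ALL#2 (13.5%), and in preleukemic over WT the shift was 0.05.

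The libraries differed in the kinds of cells they held. Cells with a UMI of S1pr1 or Ccr7, receptors that mark thymocytes near export, made up 26.6% of WT, 8.41% of preleukemic, 6.08% of T-ALL#1 and 6.13% of T-ALL#2. Without these cells the preleukemic over WT log2 ratio of Gimap4 was −0.18 in place of −1.31, and the member no longer met the rule. Gimap3 turned from −0.37 to 0.89, and Gimap7 rose from 0.94 to 1.89 and then met the rule as higher. In the same cells the leukemias stayed below WT for Gimap3, Gimap4, Gimap6, Gimap7 and Gimap8, with log2 ratios of −3.19, −1.38, −1.90, −2.58 and −2.37 in T-ALL#1. This order did not hold for Gimap4 in the DN3 gate, an early stage described below. Cycling cells, those with a UMI of Mki67 or Top2a, which are expressed in dividing cells, made up 20.6%, 23.8%, 47.9% and 61.9% of the 4 libraries. In thinned cells they made up 18.1%, 14.0%, 31.0% and 29.3%, so that preleukemic lay below WT and T-ALL#2 below T-ALL#1. At full depth, among cells not cycling, Gimap3 had a log2 ratio of −2.74 in T-ALL#1 and −5.38 in T-ALL#2 over WT, and Gimap5 had 0.00 and 0.21.

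Within every library, all 8 members took a smaller share of the UMIs in cycling than in non-cycling cells. Gimap3 stood at 24.4 CPM in cycling against 114 CPM in non-cycling cells of WT, 18.8 against 89.8 in preleukemic, 1.61 against 17.2 in T-ALL#1 and 0.406 against 2.74 in T-ALL#2, the last from 11 and 25 UMIs. Gimap6 stood at 73.3 against 318 CPM in WT, 147 against 437 in preleukemic, 20.8 against 119 in T-ALL#1 and 17.9 against 62.1 in T-ALL#2. For both genes each library's 2 intervals were apart. Gimap9 had the smallest difference, with 119 against 249 CPM in WT, 169 against 301 in preleukemic, 112 against 207 in T-ALL#1 and 73.1 against 101 in T-ALL#2.

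The fit across all genes, with library as a block, compared the 4 cycling sums with the 4 non-cycling sums, and 8 of 8 members fell in cycling cells at an edgeR adjusted p below 0.05, where 26.6% of 11856 genes fell and 26.1% rose. Gimap3 fell by 2.38 on the log2 scale (SE 0.222, edgeR adjusted p = 0.000404) and Gimap6 by 1.83 (SE 0.158, adjusted p = 0.000269). Gimap7 and Gimap8 each fell by 1.62 (adjusted p = 0.000408 and 0.000215 by edgeR) and Gimap4 fell by 1.33 (adjusted p = 0.000551). The smallest changes were those of Gimap5 (−0.86, adjusted p = 0.000957), Gimap1 (−0.85, adjusted p = 0.000699) and Gimap9 (−0.64, adjusted p = 0.00167). The direction was the same in 4 of 4 libraries for each member. The median was −1.47 over the members and −0.04 over all genes tested. The fitted values are scaled by TMM and differ from the CPM ratios, which ran for the summed family from −1.64 in WT to −0.83 in T-ALL#2. Without library as a block, 0 of 8 passed in edgeR and 4 had an unadjusted p under 0.05.

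**Figure D2:**
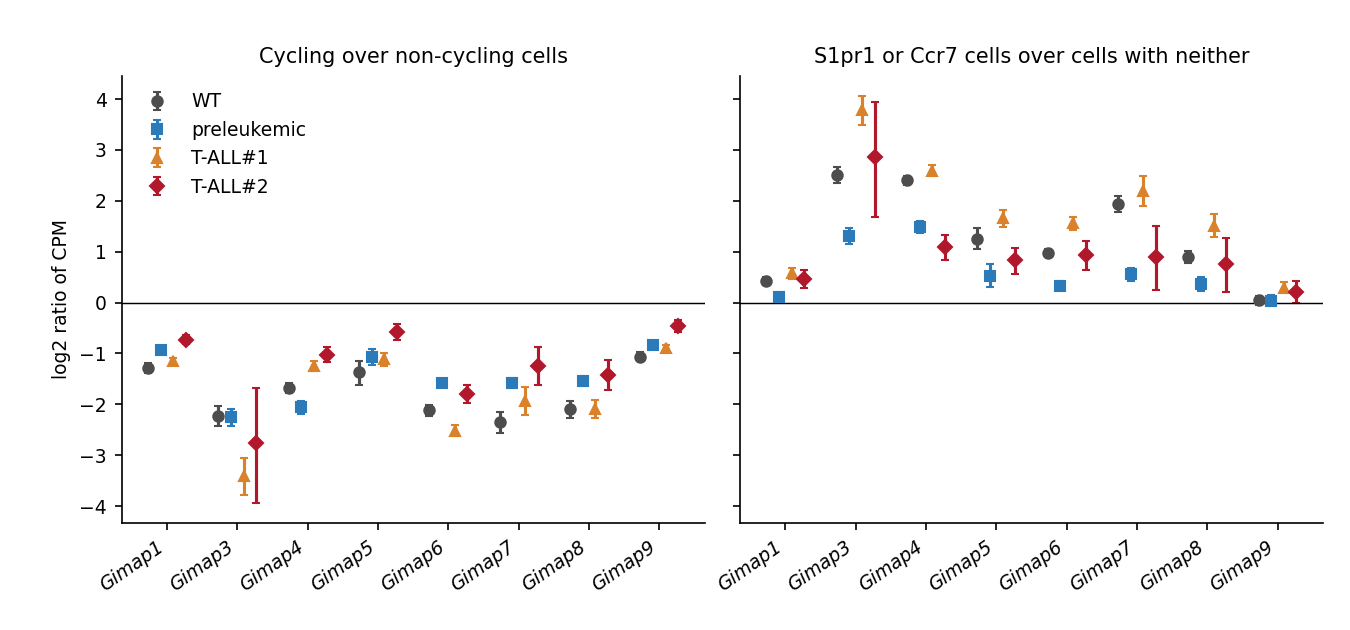
Log2 ratio of CPM for each member in each library, cycling over non-cycling cells on the left and cells with S1pr1 or Ccr7 over cells with neither on the right, with 95% conditional binomial intervals (counting error only). Every point on the left lies below 0, and on the right Gimap3 and Gimap4 are the 2 highest and Gimap9 the lowest in each library.

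Cycling cells also held more UMIs of all genes. The state is set by detection, which depends on depth. Of the same 1975 T-ALL#2 cells, 1222 were cycling at full depth and 578 when thinned to 2000 UMIs. How much of the larger total comes from this was not tested. Cycling cells had a mean of 12364 UMIs against 3966 in non-cycling cells of WT, 14053 against 5230 in preleukemic, 18637 against 6380 for T-ALL#1 and 22199 against 12098 for T-ALL#2. The number of Gimap molecules in a cell was nearly level, with 6.37 against 6.35 UMIs per cell in WT, 9.39 against 8.69 in preleukemic, 5.34 against 4.51 for T-ALL#1 and 5.87 against 5.68 for T-ALL#2. The lower share of the family thus stood beside a larger total and not beside fewer Gimap UMIs per cell. The members parted on this scale. Gimap9 had 1.33 to 1.58 times as many UMIs per cycling cell, Gimap1 1.11 to 1.41 times and Gimap5 1.20 to 1.35 times. Gimap3 had 0.271 to 0.666 times as many, Gimap6 0.511 to 0.905, Gimap7 0.609 to 0.897 and Gimap8 0.685 to 0.922 times. Gimap4 lay on either side of 1, at 0.648 in preleukemic and 1.24 in T-ALL#1. In cells thinned to 2000 UMIs, with states set anew, the share was again lower, with log2 ratios of the summed family of −1.28, −1.05, −1.22 and −0.76 in the 4 libraries.

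**Figure D3:**
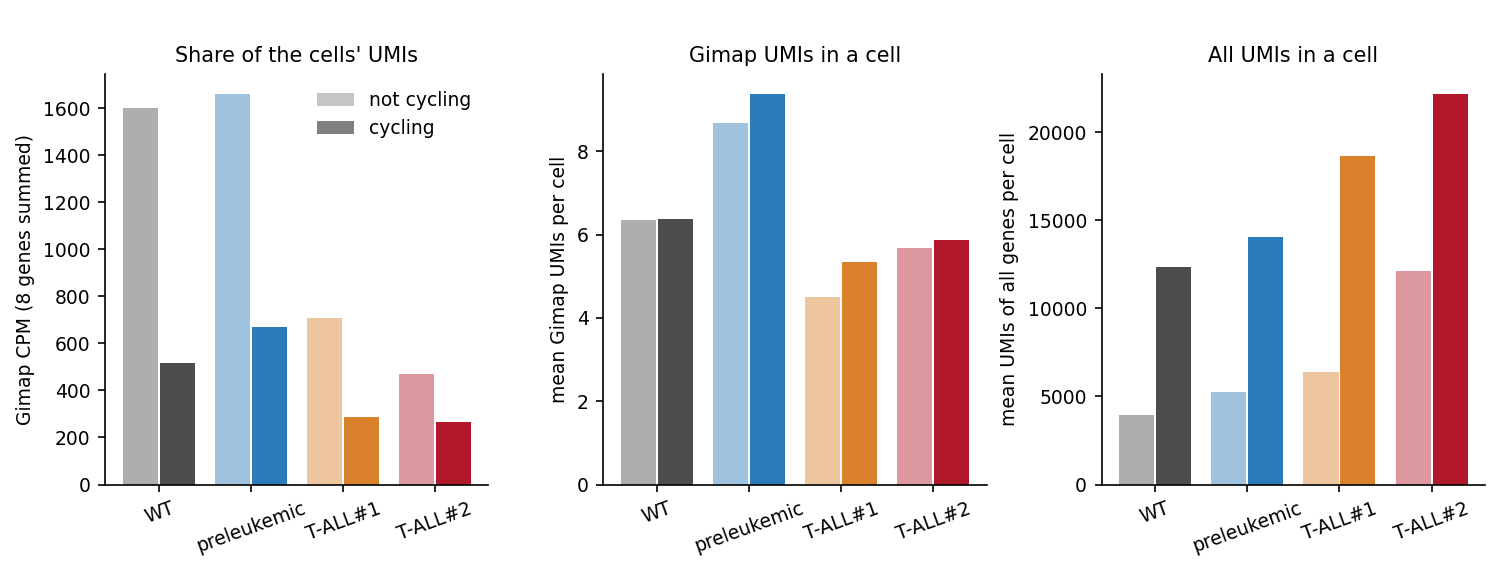
The 8 members summed, in non-cycling (pale bars) and cycling cells (full bars) of each library, as CPM on the left and as mean UMIs per cell in the middle, beside the mean UMIs of all genes per cell on the right. The share falls in cycling cells of all 4 libraries while the Gimap UMIs per cell differ by 1.00 to 1.18 times.

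Marker genes of other cells were also unequal between the states. The 6 innate-like markers summed to 46.7 CPM in cycling and 156 CPM in non-cycling cells of WT, 40.8 and 198 in preleukemic, 7.60 and 63.4 in T-ALL#1, and 3.50 and 1.32 in T-ALL#2, with all 6 detected in both states. B cell markers ran from 2.13 to 7.16 CPM in cycling and from 14.9 to 29.4 CPM in non-cycling cells, with Pax5 at 0 in both states of WT and in the cycling cells of preleukemic. Erythroid markers stood at 0.744 and 163 CPM in WT and at 0.439 CPM or less in the other libraries. Without cells holding B or myeloid markers, 8 of 8 members again fell, and the part of innate-like and erythroid RNA was not tested.

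Cells with S1pr1 or Ccr7 had more Gimap RNA, by amounts that differed among the members. Gimap4 stood at 464 CPM in these cells against 87.7 CPM in cells with neither in WT, 219 against 77.7 in preleukemic, 203 against 33.7 in T-ALL#1 and 80.1 against 37.7 in T-ALL#2. Gimap3 stood at 158 against 27.7 CPM in WT, 127 against 51.3 in preleukemic, 41.7 against 3.05 in T-ALL#1 and 5.30 against 0.732 in T-ALL#2, where the higher value rests on 11 UMIs in 121 cells. In both genes the intervals were apart in every library. Gimap7 stood at 124 against 32.5 CPM in WT, 177 against 120 in preleukemic, 24.8 against 5.42 in T-ALL#1 and 12.1 against 6.47 in T-ALL#2. Gimap9 was nearly level, at 195 against 189 CPM in WT, 246 against 240 in preleukemic, 167 against 136 in T-ALL#1 and 92.1 against 79.3 in T-ALL#2, and its intervals were apart in T-ALL#1 alone.

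In the edgeR fit with library as a block, 3 of 8 members rose and 0 fell in cells with S1pr1 or Ccr7, against 2.7% of 11415 genes that rose and 1.87% that fell. These were Gimap3 (log2 fold change 2.57, SE 0.451, edgeR adjusted p = 0.0451), Gimap4 (1.97, SE 0.312, adjusted p = 0.0374) and Gimap5 (1.13, SE 0.206, adjusted p = 0.0413). The other 5 did not pass, with edgeR adjusted p-values of 0.0516 for Gimap1 (0.44) and Gimap8 (0.94), 0.0528 for Gimap6 (1.00), 0.0736 for Gimap7 (1.48) and 0.164 for Gimap9 (0.19). At full depth the log2 ratio was above 0 in 4 of 4 libraries for every member. In cells thinned to 2000 UMIs it was below 0 for Gimap5 in preleukemic (−0.57), Gimap7 in preleukemic (−0.03) and Gimap9 in WT (−0.27) and preleukemic (−0.03), and the WT value of Gimap9 alone had an interval clear of 0. The fit on thinned cells called Gimap4, Gimap5, Gimap6, Gimap7 and Gimap8 but not Gimap3 (2.18, edgeR adjusted p = 0.122). The median was 1.06 over the members and −0.01 over all genes tested. These calls lie close to the threshold: leaving out WT, preleukemic, T-ALL#1 or T-ALL#2 left 1, 1, 0 and 1 members called, while DESeq2 called 7, all but Gimap9. All 8 had an unadjusted edgeR p under 0.05 and were higher, and without library as a block 0 passed and 2 had such a p. Of 15 alternatives to the fit, Gimap3 kept its call in 4, Gimap5 in 8 and Gimap4 in 10.

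The size of the difference varied with the library. The summed family had a log2 ratio of 1.11 in WT, 0.45 in preleukemic, 1.19 for T-ALL#1 and 0.63 for T-ALL#2. In the preleukemic library all 8 members had a smaller ratio than in WT and T-ALL#1, and the difference between libraries was not tested. UMIs per cell moved with the share here, from 3.94 to 13.0 Gimap UMIs per cell in WT, 8.62 to 11.4 in preleukemic, 4.44 to 12.1 in T-ALL#1 and 5.64 to 8.13 in T-ALL#2. Total UMIs per cell were 1.53 times as many in the S1pr1 or Ccr7 cells of WT and 0.93 times in T-ALL#2. A WT cell with either receptor held UMIs of 4.98 members on average, against 2.10 in a cell with neither. The innate-like markers were higher in these cells, at 156 against 79.8 CPM in WT, 429 against 99.3 in preleukemic and 138 against 13.8 in T-ALL#1, but not in T-ALL#2 (2.41 against 2.99). B markers stood at 3.97 against 15.6 CPM in WT, 82.7 against 13.6 in preleukemic, 30.5 against 4.63 in T-ALL#1 and 62.7 against 2.08 in T-ALL#2. In WT, myeloid markers stood at 6.31 against 71.4 CPM and erythroid markers at 1.40 against 139 CPM. Without cells holding B or myeloid markers 2 members were called, and the part of innate-like and erythroid RNA was not tested.

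Detection of Cd4 and Cd8a, the coreceptors that order thymocyte development, gave 4 classes of cells in each library, described without a test because detection depends on depth. In WT, cells with both coreceptors made up 49.7% and cells with Cd4 alone 21.7%, whereas in the preleukemic library 71.5% of cells had neither and 0.825%, 46 cells, had Cd4 alone. S1pr1 or Ccr7 cells also differed in class. Of 917 WT cells with Cd4 alone, 371 lacked both receptors. In preleukemic, 3720 of 3985 cells with neither coreceptor lacked both receptors, as did 33 of 46 with Cd4 alone. Most of the 469 preleukemic cells with either receptor thus had neither coreceptor. The state need not mark the same stage in each library. Gimap4 in WT stood at 281 CPM in cells with neither, 195 with Cd8a alone, 77.0 with both and 499 with Cd4 alone. Gimap3 followed at 106, 113, 24.0 and 125 CPM, Gimap7 at 90.2, 96.4, 29.6 and 97.2 CPM, and Gimap5 at 52.1, 51.3, 17.7 and 43.2 CPM. The cells with both coreceptors were thus lowest for these 4 members in WT, as they were for Gimap6 (141 CPM) and Gimap8 (62.6 CPM). Gimap1 ran only from 205 to 260 CPM and Gimap9 from 168 to 211 CPM over the same classes.

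In the preleukemic library Gimap6 had 338 CPM with neither coreceptor and 183 CPM with both, and Gimap3 had 61.6 and 17.9 CPM. In T-ALL#1 Gimap3 stood at 10.7 CPM with neither, 5.65 with Cd8a alone, 1.34 with both and 13.7 with Cd4 alone, and Gimap4 at 98.2, 41.6, 15.1 and 49.2 CPM. In T-ALL#2 Gimap6 had 20.7 CPM with neither and 61.2 CPM with both. Its log2 ratio of cells with neither over cells with both was −1.56 there and 0.69, 0.89 and 0.38 in WT, preleukemic and T-ALL#1. Gimap8 gave −1.35 in T-ALL#2 and 0.82, 0.73 and 0.05 in the others. In thinned cells, with classes set anew, T-ALL#1 turned to −0.35 for Gimap6 and −1.09 for Gimap8, both with intervals clear of 0, and T-ALL#2 stood at −2.32 and −2.43. In both leukemias these genes were then lower in cells with neither coreceptor, whereas WT stood at 0.48 and 0.54 and preleukemic at 0.24 and 0.63, the last pair with intervals that include 0. With thinning, cells with neither went from 16.7% to 43.6% of T-ALL#1 and from 33.9% to 74.7% of T-ALL#2. In T-ALL#1 their median before thinning was 16649 UMIs, against 4359 in thinned cells with both. The T-ALL#2 class with both held 39 cells, with 19 Gimap6 and 6 Gimap8 UMIs. The part of depth in these ratios was not tested. Thinned to 2000 UMIs, the WT values of Gimap4 were 36.0 CPM in cells with both coreceptors and 574 CPM in cells with Cd4 alone.

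**Figure D4:**
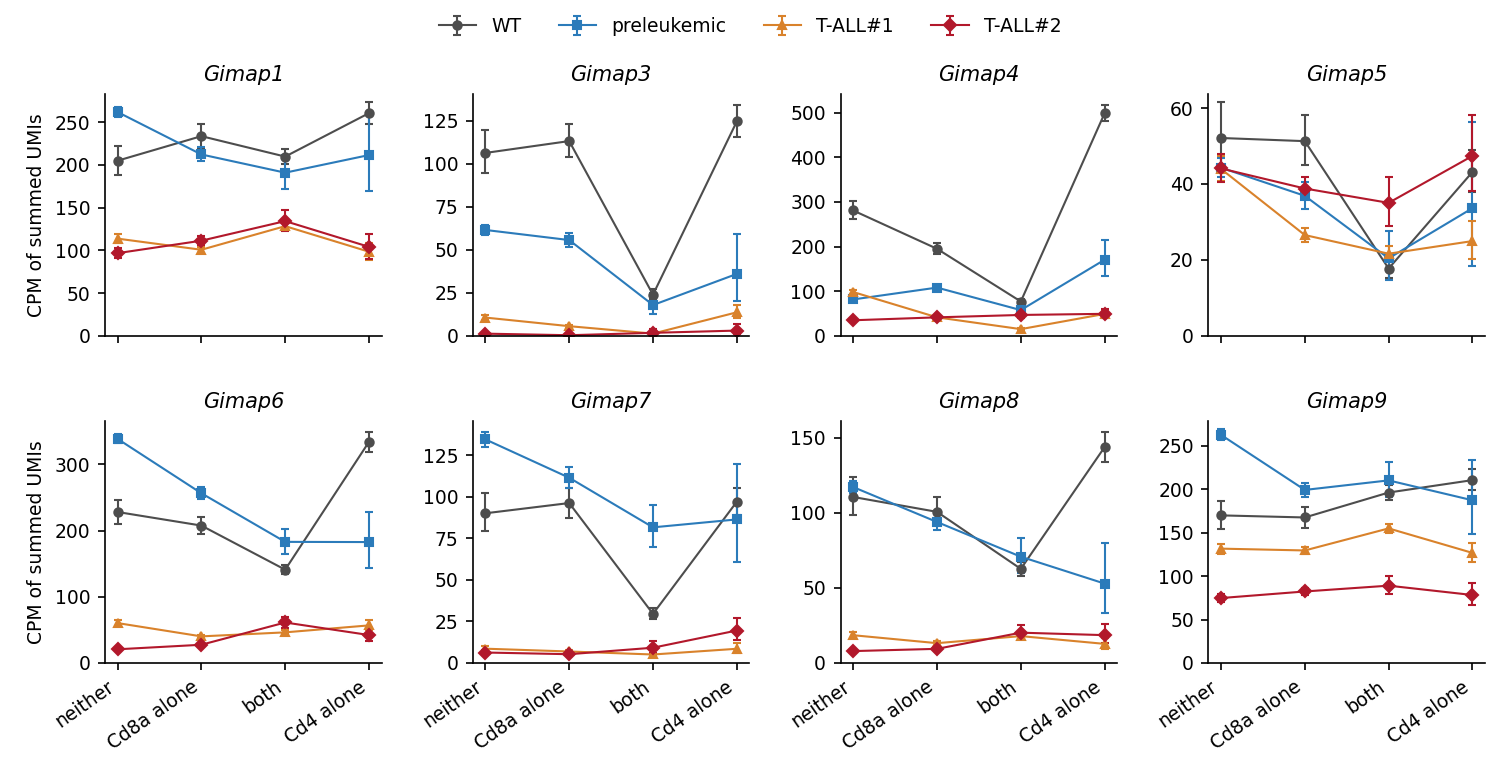
CPM of each member in the 4 classes of cells set by UMIs of Cd4 and Cd8a, in each library, with 95% Poisson intervals and axes starting at 0. In WT, Gimap4 rises from 77.0 CPM in cells with both to 499 CPM in cells with Cd4 alone, while Gimap1 runs from 205 to 260 CPM and Gimap9 from 168 to 211 CPM.

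In cells of the DN3 gate, an early stage of thymocyte development taken from the study as cells without Cd4, Cd8a and Cd44 and with Il2ra above 0.5, a limit read here on the scale of ln(1 + UMIs per 10000), the summed family was lower in cycling than in non-cycling cells. It stood at 573 against 1394 CPM in preleukemic, 362 against 806 CPM in T-ALL#1 and 248 against 366 CPM in T-ALL#2, with intervals apart in each. In WT the gate held 45 cells with 187 family UMIs, 47 of them in 14 cycling cells, and the levels were 145 CPM (107 to 193) and 481 CPM (404 to 568). The log2 ratios in the gate were −1.28, −1.15 and −0.56 in preleukemic, T-ALL#1 and T-ALL#2, and those over all cells −1.31, −1.30 and −0.83. In thinned cells they were −0.98, −1.34 and −0.57, and the WT ratio turned from −1.73 to 0.78 with 7 cycling cells left in the gate. Within the gate the whole preleukemic family level, 905 CPM, was above that of T-ALL#1 (456 CPM) and T-ALL#2 (273 CPM), and WT stood at 304 CPM (262 to 351). T-ALL#1 was thus above WT, and the T-ALL#2 value lay within the WT interval. Gimap4 stood at 11.4 CPM in WT (4.58 to 23.45, from 7 UMIs), 86.9 CPM in T-ALL#1 and 32.7 CPM in T-ALL#2. Gimap6 stood at 16.3, 48.1 and 15.4 CPM in the same order. Gimap3 (21.1, 2.73 and 0.220 CPM) and Gimap7 (14.6, 5.67 and 4.95 CPM) were lower in both leukemias than in WT.

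Over the 16 sums of 4 libraries by 4 classes, Gimap6 and Gimap8 followed the summed family most closely (Pearson r of 0.98 each on log2(CPM + 1)), and Gimap5 least (0.22). Each member is itself part of that sum, which raises its value. Gimap6 and Gimap8 had the highest correlation of any pair (0.98), and Gimap5 with Gimap9 the lowest (−0.21). Among 5785 genes with a mean of 20 CPM or more, the 8 nonmembers most like the family were Rnf114 (0.98), Irf9, Jak1, Wipf1, Ifngr2, Pigx, Cdc42se1 and Il2rg (0.98 each). Jak1, Ifngr2, Irf9 and Il2rg are known parts of cytokine and interferon signalling. The 16 points share libraries and depth, and most of their spread lies between the leukemias and the other libraries, so these values are descriptions only.

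Genes of 3 other lists were read beside the family. Of 16 genes of T cell quiescence and survival, 11 fell and 0 rose in cycling cells (median −0.88), where 26.6% of all genes tested fell and 26.1% rose. Txnip stood at −1.49 (edgeR adjusted p = 0.000168) and Btg1 at −1.33 (edgeR adjusted p = 0.000257). In cells with S1pr1 or Ccr7, 3 of the 16 rose, Foxo1 (1.30), Bcl2 (1.25) and Txnip (0.49), and 0 fell, against 2.7% and 1.87% of all genes tested. Between libraries, 9 of the 16 were at least 2-fold lower in T-ALL#1 and 10 in T-ALL#2 than in WT, led by Bcl2 (−3.49 and −4.19). The background was 12.9% and 30.3% of all genes compared. Of 14 other immune GTPases of the Gbp and Irg families, 11 fell in cycling cells (median −0.92, against 26.6% of all genes). In cells with S1pr1 or Ccr7, 5 rose (median 0.93, against 2.7%), led by Iigp1 (2.15). Of these GTPases at 10 CPM or more, 7 of 7 were at least 2-fold lower in both leukemias than in WT (background 12.9% and 30.3%), led by Iigp1 (−4.14 and −5.01). The 7 genes that flank the Gimap cluster were low. None reached 10 CPM in any library, 5 entered the fits, and of these 3 fell in cycling cells (Tmem176a −0.94, Tmem176b −0.93, Lrrc61 −0.65), against 26.6% of all genes tested. In cells with S1pr1 or Ccr7, 0 of the 5 passed in edgeR (median 0.44), with 0 at an unadjusted p under 0.05.

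Free RNA in the droplets held Gimap transcripts. In T-ALL#2, the library with its empty barcodes in the file, 65828 droplets of 100 to 500 UMIs held 256 CPM of the summed family against 316 CPM in cells. The ratio of cells over empty droplets was 1.13 for Gimap9 and 1.14 for Gimap1 and Gimap8, and it reached 1.52 for Gimap6 and 1.89 for Gimap7. Gimap3 was at 0.686 CPM in empty droplets (0.365 to 1.17) and 0.994 CPM in cells (0.696 to 1.38), with overlapping intervals. Gimap8 overlapped as well, at 9.12 CPM in empty droplets (7.81 to 10.6) and 10.4 CPM in cells (9.35 to 11.5). By number, Gimap3 had 13 UMIs in the 65828 droplets and 36 UMIs in 1975 cells. Overlap in share cannot decide whether UMIs in cells are background, because free RNA can come from the same cells. Cells with 2 or more myeloid marker genes, which were assumed to hold little Gimap RNA, had a family UMI in 2 of 9 cells of WT, 3 of 10 of preleukemic, 3 of 6 of T-ALL#1 and 4 of 7 of T-ALL#2, at medians of 11473, 3187.5, 12587.5 and 11375 UMIs per cell. Other cells had one in 88.2%, 96.8%, 91.6% and 94.95%. By level the myeloid-marker cells stood at 206, 391, 335 and 179 CPM (from 22, 19, 25 and 24 UMIs), against 1119, 1209, 399 and 315.5 CPM in other cells. In the leukemias the levels were thus closer than the shares of cells. Cells with B markers, a lymphocyte type that uses the family, had a family UMI in 17 of 17 cells of preleukemic, 12 of 12 of T-ALL#1 and 6 of 7 of T-ALL#2, and WT held 0 such cells. By level these cells stood at 1451, 1946.5 and 830 CPM in preleukemic, T-ALL#1 and T-ALL#2. Without cells holding B or myeloid markers, the T-ALL#2 over WT log2 ratio of Gimap3 went from −6.22 to −6.69.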

How the data were processed

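The authors dissociated each thymus, lysed red cells, sorted viable singlets and prepared droplet 3′ libraries. The deposited matrices hold UMI counts per gene and barcode, made by the authors with Cell Ranger (3.0.2, and 4 for T-ALL#2, per the file headers) on mm10, and the depth is the total UMI count given in the report. The sources differ on the kit versions used, and the libraries cannot be separated by kit. Cells with more than 500 genes and a mitochondrial share under 10% were kept. The T-ALL#2 file held 1791965 barcodes, and those with at least 3416 UMIs (1/10 of the 99th percentile of the 10000 largest) were taken as cells. These were fewer than the study processed for this library before its own filtering. No UMI limit was set for WT, preleukemic and T-ALL#1, and the non-cycling WT cells had a median of 3280 UMIs. No doublet caller was run. UMIs were summed per library and state and tested with edgeR 4.0.16 (TMM, filterByExpr, robust quasi-likelihood, library as a block, Benjamini-Hochberg over all genes). The SE is the log2 fold change over the square root of the F statistic. Each library's 2 sums come from the same mouse, which is the basis of the pairing, and p-values measure the spread over 4 libraries. DESeq2 1.42.0 in R 4.3.3 was an alternative. The fits were tested on simulated data. The genes that set a state were left out as results. Intervals are 95% Poisson, binomial or conditional binomial.

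The members, lists and tests were chosen with earlier results of these data known. All 8 members were named. From each list, up to 4 genes with the largest change among those called could be named, and genes like the family by the 8 highest correlations. Promoter sequences are from RefSeq (GRCm38.p6), and all 8 symbols matched. Protein sequences were not used here.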

Additional observations from a re-analysis of the deposited data

Results flagged for a closer look

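Among 135 comparisons of direction between pairs of groups, 4 had every library of one group moving one way and every library of the other moving the opposite way, with counting intervals clear of 0. The differences themselves were not tested, and WT and preleukemic are 1 library each. For Gimap1, cells with Cd4 alone over cells with both coreceptors gave a log2 ratio of 0.31 in WT but −0.38 in T-ALL#1 and −0.37 in T-ALL#2. Cells with neither coreceptor over cells with both gave 0.46 for Gimap1 in preleukemic and −0.17 and −0.47 in T-ALL#1 and T-ALL#2. For Gimap9 the same ratio was 0.32 in preleukemic, against −0.21 in WT and against −0.24 and −0.25 in T-ALL#1 and T-ALL#2. The opposite directions with intervals clear of 0 were not found in cells thinned to 2000 UMIs, with classes set anew. There, Gimap1 in cells with Cd4 alone gave −0.35 in WT, 0.11 in T-ALL#1 and 0.88 in T-ALL#2, with intervals that include 0 in both leukemias. In cells with neither coreceptor Gimap1 gave −0.17 in preleukemic, −0.61 in T-ALL#1 and −0.19 in T-ALL#2. Gimap9 gave −0.59 in WT, 0.04 in preleukemic, −0.66 in T-ALL#1 and 0.23 in T-ALL#2, and the preleukemic and T-ALL#2 intervals include 0.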

How the results depend on the processing

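In cycling cells, 8 of 8 members fell under 14 of the 15 alternatives to the edgeR fit, leaving out each library included, and 0 fell without the replicate block (adjusted p 0.06 to 0.40, with 4 of 8 members at an unadjusted p under 0.05). Genes called numbered 3093 higher and 3150 lower, against 737 and 185 without the replicate block and 1880 and 1808 in thinned cells. In cells with S1pr1 or Ccr7, the 3 members called became 1 with all genes of at least 1 UMI tested, 6 with RLE size factors, 7 with DESeq2, 5 in thinned cells, 5 at a mitochondrial share under 5% and 0 without the replicate block (2 at an unadjusted p under 0.05 in edgeR), and leaving out a library gave 0 to 1 (0 without T-ALL#1). The direction held for all members except Gimap9, which was −0.002 among cells not cycling. Genes called higher there were 308, against 618 by DESeq2, 193 among cells not cycling, 914 with S1pr1 against neither and 0 without the replicate block, and 37 to 514 with a library left out (514 without WT, 37 without preleukemic, 88 without T-ALL#1 and 95 without T-ALL#2). Genes called lower were 213, against 385 with all genes tested, 516 by DESeq2, 336 in thinned cells, 138 under an upper gene limit, 117 at the lower mitochondrial limit, 45 among cells not cycling, 1129 with S1pr1 against neither and 0 without the replicate block, and 1 to 661 with a library left out (661, 1, 27 and 6 in the same order). No gene passed without the block, where 259 were higher and 151 lower at an unadjusted p under 0.05. The cause of these changes was not tested. In preleukemic over WT, 0 members were lower with cells weighted equally or without S1pr1 and Ccr7 cells, and 1 was higher under these settings and in thinned cells. The other counts between libraries stayed within 1.5 times. Few UMIs (36) limit Gimap3 in T-ALL#2, and the intervals of Gimap3 and Gimap8 there overlapped those of empty droplets.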
